A study of Saccharomyces cerevisiae with 12 samples.

Results

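The genes described here carry siderophore-bound iron through the wall and the membrane of Saccharomyces cerevisiae. They are the 3 cell wall iron retention mannoproteins FIT1, FIT2 and FIT3 and the 4 siderophore transporters ARN1, ARN2, SIT1 and ENB1. They were taken by gene symbol and make up 7 of the 5656 genes tested. Each had 1 probe set of its own: 5913_at for FIT1 (YDR534C), 8181_at for FIT2 (YOR382W), 8182_at for FIT3 (YOR383C), 4568_at for ARN1 (YHL040C), 4562_at for ARN2 (YHL047C), 5769_at for SIT1 (YEL065W) and 8723_at for ENB1 (YOL158C). By the R64 gene table, FIT2 and FIT3 are neighbours, and the gene on the other side of FIT3 is FRE5, which encodes a predicted ferric reductase.

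The 12 arrays were of the Affymetrix type Yeast S98 and fell into 4 groups of 3, and each array came from a culture of its own according to the design text. The wild type was MLY61, a diploid a/alpha strain homozygous for ura3-52, and the mutant was MLY132, a diploid of the same mating type constitution that is also homozygous for ura3-52 and carries delta gpa2::G418 on both copies of GPA2, so both strains lack a working URA3 gene. GPA2 encodes a G protein alpha subunit of nutrient signalling. Cells of each strain were collected at an OD600 of 1.0 from YPM, a rich maltose medium, or were filtered at that density and held for 2 h at 30 °C in SLAM. SLAM is a defined medium with 2% maltose, 0.17% yeast nitrogen base and 50 µM ammonium sulfate, used to induce pseudohyphal growth, so the media differ in more than nitrogen. Levels are the deposited log2 expression values, on which a difference of 1 is a 2-fold difference.

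Siderophores are small molecules that bind ferric iron tightly. Saccharomyces cerevisiae is not known to make them, but it takes iron from those released by other microbes. The Fit proteins are anchored in the cell wall, where they help to retain siderophore-bound iron, and the transporters of the Arn family carry the intact complex across the membrane, each with its own range of siderophores. The genes of this route are known targets of the iron-responsive activator Aft1, as are those of the reductive route, in which Fre reductases free the iron and the oxidase Fet3 and permease Ftr1 import it. Aft1 is most active when cells are short of iron.

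GPA2 read between 5.14 and 5.60 on the 6 arrays of the deletion strain and between 9.70 and 11.10 on the 6 wild-type arrays, a difference of −5.05 (exact two-sided permutation test over 924 splits, p = 0.00216), so every array matched its strain label. Of 17 genes that haploid cells express, 9 had a mean no higher than 5.60, the highest reading of the deleted gene, and the highest mean was that of MFA2 at 8.49. Array medians lay between 7.33 and 7.50. The third deletion culture in YPM stood apart from the other deletion cultures in YPM at all 7 siderophore genes, and results that rest on it are given with and without it. It was singled out by the low readings of these genes, so their counts, folds, intervals and p-values without it are conditioned on those readings. The shares of all genes beside them are not, and nothing is read from that comparison. The array so singled out is called the divergent array below. Its GPA2 reading was 5.48, within the range of the deletion strain.

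All 7 siderophore genes had lower means in SLAM than in YPM in both strains. In wild type the differences ran from −4.26 for FIT1 to −1.51 for FIT3, with a median of −2.37 beside −0.05 over all genes. In the deletion strain they ran from −3.42 for FIT2 to −0.93 for FIT3, with a median of −1.81 beside 0.01 over all genes, and with a median of −2.82 without the divergent array. Ranked from the largest fall among all genes over 12 arrays, they stood from 1 (FIT1) to 146 (FIT3) in wild type. The ranks in the deletion strain ran from 18 (FIT2) to 806 (FIT3). On 5 of the 6 YPM arrays, the genes other than FIT3 each read higher than on any SLAM array. No siderophore gene passed the test between the strains in either medium. In RNA from whole cultures, fewer cells expressing a gene and less RNA per cell cannot be told apart.

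FIT1 encodes one of the wall mannoproteins. Its level was 11.02, 11.58 and 12.53 on the wild-type YPM arrays (replicates 1, 2 and 3, in accession order) and 7.76, 6.73 and 7.87 on the wild-type SLAM arrays. The deletion values were 11.88, 12.44 and 7.23 in YPM and 7.58, 7.62 and 7.81 in SLAM. The wild-type groups lay more than 3 log2 units apart, and in the deletion strain 2 YPM arrays were as high as wild type while the divergent array fell below every SLAM array of that strain. The wild-type mean was 19.1-fold lower in SLAM (log2 difference −4.26, SE 1.02, adjusted p = 0.0239), the largest fall among the 5656 genes. The corresponding difference in the deletion strain was −2.85 (SE 1.02, adjusted p = 0.0553), and −4.49 (SE 0.44, adjusted p = 0.000307) without the divergent array.

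FIT2, the neighbour of FIT3, encodes another wall mannoprotein. Its level was 11.15, 12.56 and 12.70 in wild-type YPM and 7.04, 9.37 and 7.29 in wild-type SLAM. The deletion strain gave 12.27, 12.38 and 7.49 in YPM and 7.29, 8.08 and 6.51 in SLAM. The wild-type groups did not overlap although the second SLAM array was the highest of its group, and the divergent array read within the deletion strain's SLAM range. FIT2 was 18.8-fold lower in SLAM in wild type (log2 −4.23, SE 1.10, adjusted p = 0.0314), the second largest fall among all genes. It was 10.7-fold lower in the deletion strain (log2 −3.42, SE 1.10, adjusted p = 0.037). Leaving out the divergent array made that difference −5.03 (SE 0.69, adjusted p = 0.00076).

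FIT3, the remaining mannoprotein gene, followed the other FIT genes in part. It read 12.56, 13.48 and 13.66 in wild-type YPM against 10.19, 13.39 and 11.60 in SLAM. FIT3 in the deletion strain read 13.56, 13.54 and 10.06 in YPM against 10.62, 13.19 and 10.55 in SLAM. In each strain the second SLAM array was at the YPM level, so the media overlapped in wild type as well as in the deletion strain. The differences were −1.51 in wild type (SE 1.02, adjusted p = 0.338) and −0.93 in the deletion strain (SE 1.02, adjusted p = 0.535). The latter was −2.09 without the divergent array (SE 0.90, adjusted p = 0.108), so FIT3 passed in neither strain with or without that array.

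The second SLAM array of each strain also separated the mannoprotein genes from one another. Against the mean of the other 2 SLAM arrays, FIT3 was 2.50 higher in wild type and 2.60 higher in the deletion strain, above 99.7% of all genes in each. FIT2 was 2.21 and 1.18 higher on the same arrays, whereas FIT1 differed by −1.09 and −0.08. ARN1 differed by −0.44 and −0.12 and ARN2 by 0.44 and 0.02. SIT1 differed by 0.06 in wild type and 1.44 in the deletion strain, and ENB1 by 1.22 and 0.08. Replicate numbers follow accession order, and no label links the cultures that share a number. The wild-type array of this pair differed 2-fold or more from its group in 21.7% of all genes, the largest share of the 12 arrays, and the part of this in the FIT3 and FIT2 values was not tested.

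ARN1 encodes a transporter of ferrichrome-type siderophores. It read 10.91, 11.27 and 11.36 in wild-type YPM and 9.07, 8.63 and 9.07 in wild-type SLAM. The deletion strain read 12.07, 11.89 and 8.38 in YPM and 9.19, 9.23 and 9.50 in SLAM. Within each group other than deletion YPM the arrays lay close together, and the divergent array read below all 6 SLAM arrays. The wild-type difference was −2.26 (SE 0.72, adjusted p = 0.0576), or 4.78-fold lower, and the SE was 0.22 (adjusted p = 0.000301) once the divergent array no longer entered the shared estimate of the spread. The deletion strain differed by −1.47 (adjusted p = 0.149), and by −2.67 (SE 0.24, adjusted p = 0.000221) without that array.

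ARN2 encodes the transporter of triacetylfusarinine C. Its wild-type values were 11.01, 11.98 and 12.30 in YPM and 8.79, 9.18 and 8.70 in SLAM. Its deletion values were 12.21, 12.20 and 8.20 in YPM and 8.86, 9.05 and 9.20 in SLAM. The media did not overlap in wild type, and the divergent array was again lower than all 6 SLAM arrays. In wild type ARN2 was 7.34-fold lower in SLAM (log2 −2.87, SE 0.82, adjusted p = 0.0413). The deletion difference was −1.83 (SE 0.82, adjusted p = 0.118), and −3.17 (SE 0.34, adjusted p = 0.000307) without the divergent array.

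SIT1 encodes a transporter of ferrioxamine B and related siderophores. It read 10.99, 11.86 and 11.89 in wild-type YPM and 9.54, 10.04 and 10.42 in wild-type SLAM. The deletion readings were 11.74, 12.18 and 9.51 in YPM and 9.08, 10.29 and 8.63 in SLAM. The wild-type groups were separated by less than for the other transporters, and the divergent array lay among the deletion SLAM arrays. The wild-type difference of −1.58 (SE 0.62) missed the threshold with all arrays (adjusted p = 0.106) and passed it without the divergent one (SE 0.42, adjusted p = 0.033). The deletion strain had SIT1 3.52-fold lower in SLAM (log2 −1.81, SE 0.62, adjusted p = 0.046), and 6.19-fold lower without that array (log2 −2.63, SE 0.47, adjusted p = 0.00234).

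ENB1 encodes the transporter of enterobactin. It read 12.08, 12.19 and 12.55 in wild-type YPM and 9.29, 10.71 and 9.70 in wild-type SLAM. The deletion strain gave 12.37, 12.40 and 8.90 in YPM and 9.54, 9.62 and 9.53 in SLAM. The deletion SLAM arrays were the tightest group of any siderophore gene (SD 0.05, n = 3), and the divergent array lay below them. ENB1 was 5.18-fold lower in SLAM in wild type (log2 −2.37, SE 0.73, adjusted p = 0.0522, and SE 0.32, adjusted p = 0.00219 without the divergent array). The deletion strain differed by −1.66 (SE 0.73, adjusted p = 0.112), and by −2.82 (SE 0.35, adjusted p = 0.000526) without that array.

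**Figure D1:**
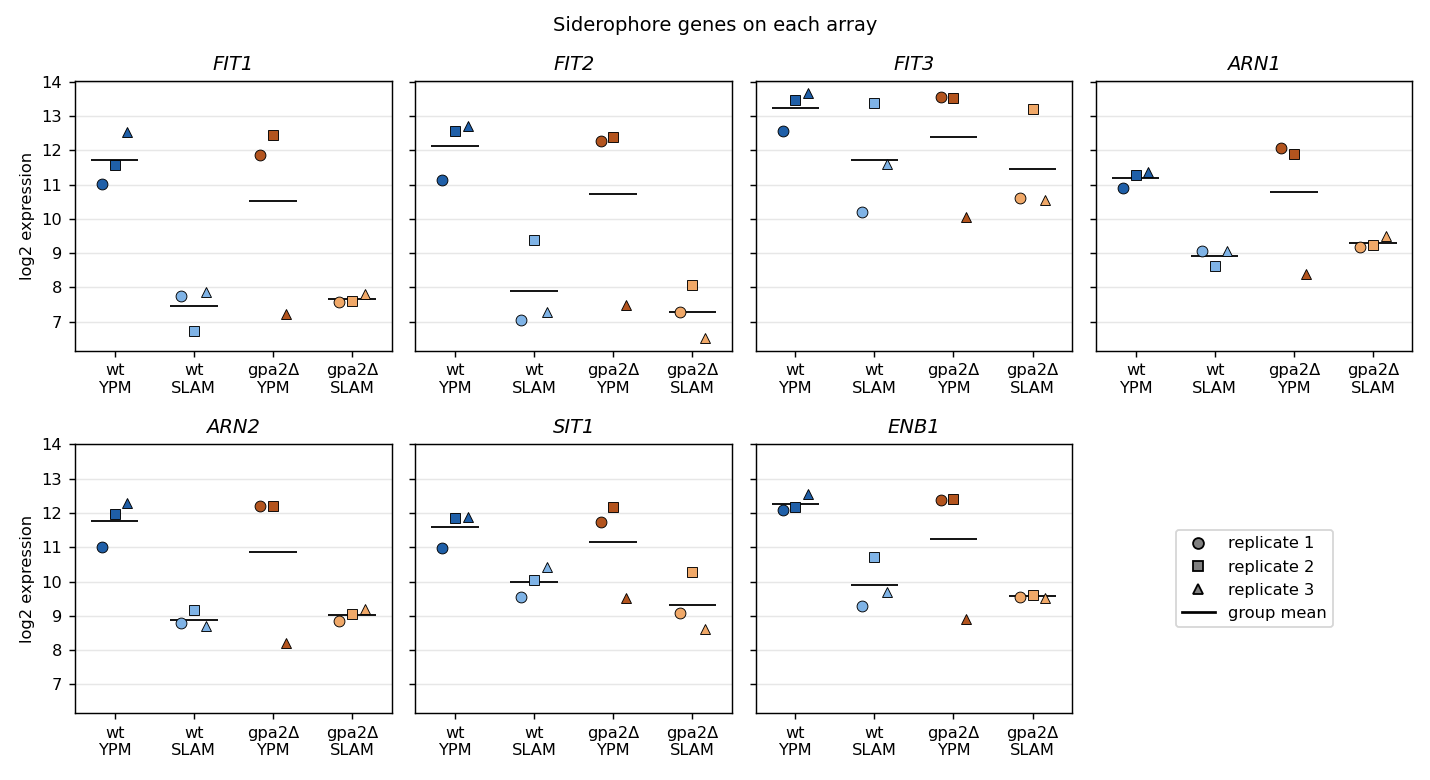
Deposited log2 expression of the 7 siderophore genes (vertical axes) on each of the 12 arrays, by strain (wt, wild type; gpa2Δ, gpa2 deletion) and medium. Circles, squares and triangles are replicates 1, 2 and 3, and black lines are means of 3 arrays. The deletion YPM triangle lies with the SLAM arrays or below them for every gene, and the SLAM squares of FIT3 reach 13.19 and 13.39, within the YPM range.

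Counted over all 12 arrays with limma's moderated test and Benjamini-Hochberg adjustment over all genes, FIT1, FIT2 and ARN2 passed as lower in SLAM in wild type, 3 of 7, where 7.34% of all genes passed in that direction. FIT2 and SIT1 passed in the deletion strain, 2 of 7, against 14.8% of all genes. The counts were 6 of 7 in each strain without the divergent array, all but FIT3, against 8.54% and 14.5% of all genes. The wild-type differences themselves are the same with and without that array, which changes only the spread shared by all groups. These counts also rest on other arrays. The wild-type count was 0 of 7 when replicate 2 or 3 of wild-type YPM or replicate 3 of wild-type SLAM was left out, 1 without replicate 1 of wild-type SLAM, and 2 without replicate 1 of wild-type YPM or of deletion SLAM. The deletion count was 0 of 7 without replicate 1 or 2 of deletion YPM, replicate 1 or 3 of deletion SLAM, or replicate 2 of wild-type YPM, and 1 without replicate 1 or 3 of wild-type YPM or of wild-type SLAM.

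Groups did not overlap in wild type for 6 siderophore genes, all lower in SLAM, where 20.4% of all genes did the same. In the deletion strain 0 of 7 were free of overlap, against 21.7% of all genes, since the divergent array reached the SLAM range in each. With that array set aside, the lowest of the other 5 YPM arrays exceeded the highest of the 6 SLAM arrays for 6 genes. The share of all genes was 11.3%, but setting the array aside for its low readings at these genes favours them in this count, so it is a description only. The gap was 3.15 for FIT1, 1.81 for ARN2, 1.77 for FIT2, 1.41 for ARN1, 1.37 for ENB1 and 0.56 for SIT1. FIT3 overlapped by 0.83.

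A comparison averaged over both strains was added after the data had been seen. It called 6 of the 7 genes lower in SLAM, against 21.5% of all genes, with differences from −3.82 (FIT2, SE 0.78, adjusted p = 0.00232) to −1.70 (SIT1, SE 0.44, adjusted p = 0.00898). FIT3 differed by −1.22 (SE 0.72, adjusted p = 0.201). Without the divergent array all 7 passed, FIT3 at −1.80 (SE 0.60, adjusted p = 0.0337). The count was 6 or 7 whichever single array was left out.

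**Figure D2:**
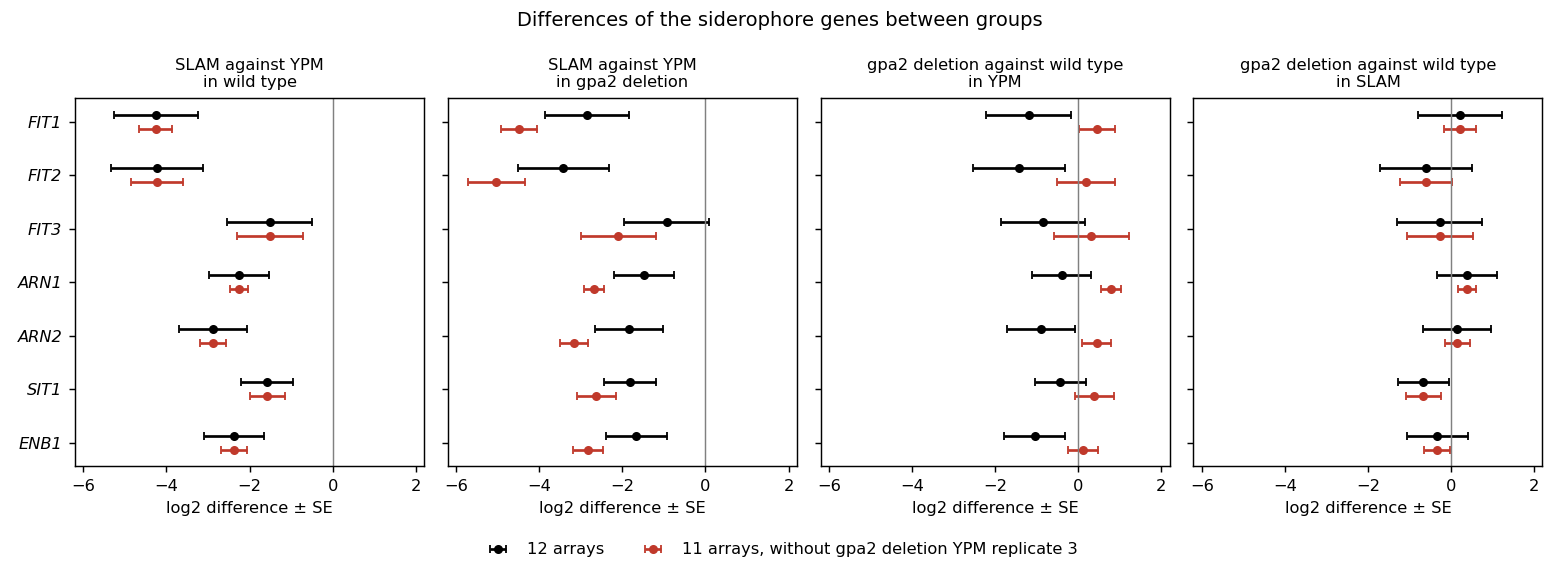
Log2 differences (horizontal axes, points with bars of 1 standard error) of the 7 siderophore genes in 4 comparisons, from the fit to 12 arrays (black) and to 11 arrays without gpa2 deletion YPM replicate 3 (red). In deletion against wild type in YPM, the 12-array values run from −1.42 to −0.40 and the 11-array values from 0.12 to 0.80.

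Between the strains in YPM, every siderophore gene averaged lower in the deletion strain, from −0.40 for ARN1 to −1.42 for FIT2, and 0 of 7 passed limma's test (adjusted p = 0.994 for each), nor did any have an unadjusted p under 0.05. Only 1 gene passed in this comparison, GPA2 itself, which is 0.0177% of the genes tested. Leaving the divergent array out turned the direction for all 7, to between 0.12 for ENB1 and 0.80 for ARN1. For ARN1 both remaining deletion arrays, at 12.07 and 11.89, were higher than the 3 wild-type arrays. Its difference of 0.80 (SE 0.24, 95% interval 0.26 to 1.33) had an unadjusted p of 0.0071 and an adjusted p of 0.999. The array was left out for its low readings at these genes, which raises the deletion means and narrows the spread. ARN1 also had the largest difference of the 7, so its interval and unadjusted p are no valid test. The 95% intervals of the other 6 genes without that array all spanned 0 and were widest for FIT3, from −1.65 to 2.29.

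Between the strains in SLAM, where the divergent array plays no part in the means, the differences were small beside those between media. They ran from −0.67 for SIT1 (95% interval −2.02 to 0.68) to 0.38 for ARN1 (95% interval −1.19 to 1.95). None of the 7 passed limma's test or had an unadjusted p under 0.05, while 2.81% of all genes passed. ARN1 was the only member whose groups did not overlap, with 9.19, 9.23 and 9.50 in the deletion strain against 9.07, 8.63 and 9.07 in wild type, and 10.8% of all genes were likewise free of overlap and higher. The intervals of the 7 genes allow differences of over 2-fold either way for FIT1, FIT2, FIT3, ARN1, ARN2 and ENB1, so the arrays do not show that the strains were alike. Without the divergent array, which widens the shared spread, the interval narrowed to −0.10 to 0.86 for ARN1 and to −1.59 to 0.25 for SIT1. Leaving out replicate 2 of wild-type SLAM turned the sign of FIT1 (−0.15), FIT2 (0.13), FIT3 (0.56) and ENB1 (0.072).

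The difference between the strains in their SLAM response was tested directly, as the deletion response minus the wild-type response. It ran from −0.24 for SIT1 to 1.41 for FIT1 (SE 1.44, adjusted p = 0.98). In this comparison 0 of 7 siderophore genes and 0 of all genes (0%) passed limma's test, with an unadjusted p under 0.05 for 228 genes, 0 of them siderophore genes. Without the divergent array the differences ran from −1.05 for SIT1 (SE 0.63, adjusted p = 0.781) to −0.23 for FIT1, so the sign turned for the 6 genes other than SIT1. These comparisons share arrays with those given above and are not independent of them.

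The sizes of the low readings on the divergent array describe what set it apart and are no test. Relative to the mean of the other deletion YPM arrays, FIT1 was 30.4-fold lower there, FIT2 28.6-fold, ARN2 16.1-fold, ARN1 12.1-fold, FIT3 11.3-fold, ENB1 11.2-fold and SIT1 5.45-fold. Ranked by this difference among all 5656 genes, FIT1 was 2, FIT2 3, ARN2 4, ARN1 6, FIT3 9, ENB1 10 and SIT1 32. The 4 other genes among the 10 largest falls were TIS11, also known as CTH2, which encodes a protein that promotes decay of mRNAs for iron-using proteins when iron is short (log2 −5.51), the uncharacterized YMR317W (−3.92), the ribonucleotide reductase inhibitor HUG1 (−3.54) and the low-affinity iron transporter FET4 (−3.53). TIS11 (5.595) and YMR317W (5.27) read there no higher than the deleted GPA2 could, so the sizes of their falls are only bounds.

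The 10 largest rises on that array ran from 2.80 for the heat shock gene HSP30 to 3.51 for the catalase gene CTT1. The others were ARO10 and ARO9 of aromatic amino acid breakdown, the glycerol transporter STL1, the lactate dehydrogenase CYB2, the catalase CTA1, SDH9, FMP48 and NRS1. CTT1, CTA1 and CYB2 encode heme enzymes, and STL1 is the neighbour of FIT1. FIT1 read 7.23 there, after 11.88 and 12.44 on the other deletion YPM arrays, while STL1 read 9.29 after 6.26 and 5.93. The heme and neighbour traits were picked out of the 10 rises, and no link of these genes to the siderophore genes was tested.

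**Figure D3:**
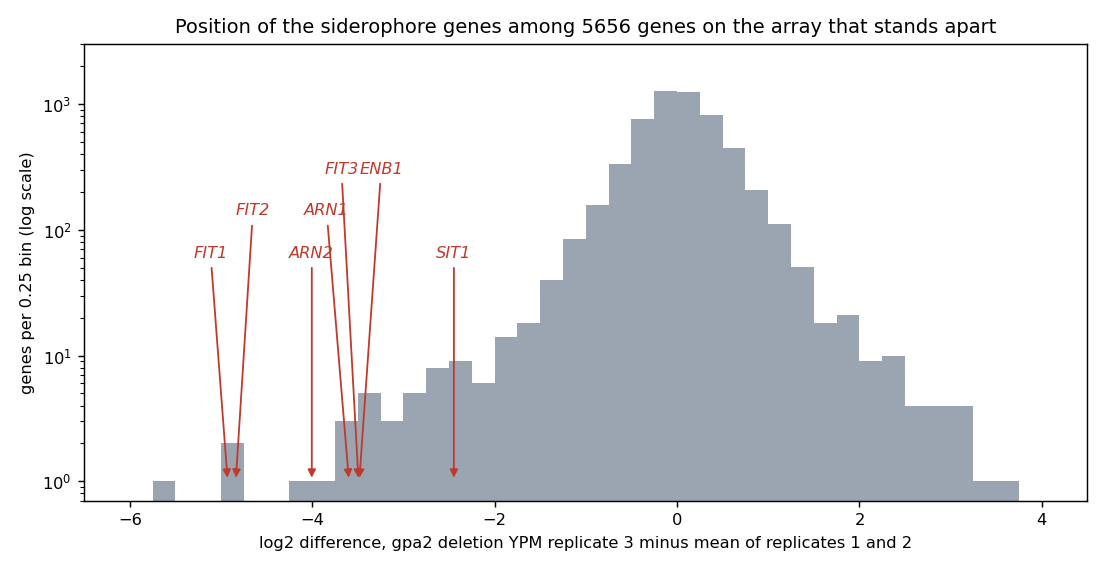
Number of genes (vertical axis, log scale) by log2 difference of gpa2 deletion YPM replicate 3 from the mean of replicates 1 and 2 (horizontal axis), over 5656 genes. Arrows mark the 7 siderophore genes, which lie between −4.93 and −2.45, in the lower tail of a distribution whose median is 0.02.

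Placed between the mean of the other deletion YPM arrays (0%) and the deletion SLAM mean (100%), the divergent array stood at 93.0% for SIT1, 96.2% for FIT2, 110% for FIT1, 123% for ENB1, 126% for ARN2, 135% for ARN1 and 167% for FIT3. The median of the 7 was 123%. Over the 816 genes that were lower in SLAM by at least 2-fold on this scale the median was 25.1%, and over the 718 that were higher by as much it was 33.5%. On that array 5 of the 7 siderophore genes were past their SLAM mean, and SIT1 and FIT2 were just short of it. The median media-dependent gene stood nearer to YPM. The array was singled out by the low readings of the 7 siderophore genes, which favours them in this comparison, so it is a description only. From each list, only genes that differed by at least 2-fold on this scale, in either direction, were placed. The reductive iron uptake genes stood at a median of 98.9% (8 genes, lower quartile 86.7%). Other iron transport and recycling genes stood at 88.1% (6 genes, lower quartile 57.8%) and the iron-sulfur and heme enzymes at 91.9% (11 genes, lower quartile 56.0%). The iron regulators stood at 74.4% (4 genes, lower quartile 48.2%), below the zinc uptake and other mannoprotein medians that follow. Of the lists not chosen for iron, zinc uptake had a median of 84.9% (3 genes, lower quartile 37.9%). Other mannoproteins had one of 84.8% (6 genes, lower quartile 49.7%), while copper uptake stood at 25.6% (3 genes). No label sets this culture apart from the others of its group, and what made it differ was not tested.

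The other iron genes on the lists described next were chosen from general knowledge of the pathway. Of the 10 genes of reductive iron uptake, all averaged lower in SLAM in both strains, with medians of −1.63 in wild type and −1.75 in the deletion strain. In each strain 2 passed over 12 arrays: the reductase FRE1 (−2.97, SE 0.57) and the copper pump CCC2 (−1.96, SE 0.40), which loads Fet3, in wild type, and FRE1 (−2.79, SE 0.57) and the iron permease FTR1 (−2.14, SE 0.60) in the deletion strain. All-gene shares of lower calls were 7.34% and 14.8%. Without the divergent array 7 passed in wild type and 9 in the deletion strain, all as lower, against 8.54% and 14.5% of all genes. FRE5 read between 3.38 and 3.96 on the SLAM arrays, below the 5.60 that the deleted GPA2 could reach, and so gives only a bound to its difference.

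Of 10 genes of other iron transport and recycling, 0 passed limma's test in wild type, with an unadjusted p under 0.05 for 1 higher and 5 lower genes. In the deletion strain FET4 (−2.53), the mitochondrial iron carrier MRS3 (−1.33) and the vacuolar oxidase FET5 (−0.91) passed as lower, and CTH1, the relative of TIS11, as higher (1.04). All-gene shares were 7.34% lower and 5.23% higher in wild type, and 14.8% lower and 13.4% higher in the deletion strain. TIS11 itself had differences of −3.90 in wild type and −3.12 in the deletion strain, with adjusted p = 0.0506 and 0.0698. It passed in both strains without the divergent array, at −3.90 and −4.96. That setting brought the counts to 3 lower in wild type, and to 5 lower and 1 higher in the deletion strain. The matching shares of all genes were 8.54%, 14.5% and 12.8%.

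Of 7 measured iron regulators and their partners, 1 passed in wild type: CCC1, which moves iron into the vacuole, was higher in SLAM (1.37, SE 0.39). In the deletion strain 2 passed as higher, CCC1 (1.52, SE 0.39) and FRA1 (mean 9.28 in YPM and 10.05 in SLAM). GRX3 passed there as lower (−1.41), 1 of 7. All-gene shares were 5.23% higher in wild type, and 13.4% higher and 14.8% lower in the deletion strain. AFT1, the activator of the siderophore genes, differed by −1.21 and −1.26 (adjusted p = 0.155 and 0.111), and passed only in the deletion strain without the divergent array (−1.77, adjusted p = 0.0318). It read between 8.27 and 8.77 on the YPM arrays other than the divergent one, 6.92 on that array and between 5.61 and 8.33 in SLAM. The SLAM arrays spread from well below the YPM arrays to their level, and the array at 8.33 was the second wild-type SLAM array, where FIT2, FIT3, ARN2 and ENB1 were also highest in their group but FIT1 (6.73) and ARN1 (8.63) were lowest. AFT2, the paralog of AFT1, differed by 0.00 in wild type and 0.26 in the deletion strain and passed in neither.

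Of 14 iron-sulfur and heme enzymes and cluster assembly genes, the isopropylmalate isomerase LEU1 (1.78) and the biotin synthase BIO2 (1.29) passed as higher in SLAM in wild type, 2 of 14 where 5.23% of all genes did. In the deletion strain 6 passed as higher, against 13.4% of all genes, led by LEU1 (2.78), the glutamate synthase GLT1 (2.60), the cluster assembly gene ISA1 (1.55) and the succinate dehydrogenase subunit gene SDH1 (1.10). Once the divergent array was left out, 5 passed as higher in wild type, against 5.73% of all genes, and 10 in the deletion strain, against 12.8%. There the scaffold gene ISU2 passed as lower (−2.53), 1 of 14 where 14.5% of all genes did. Several of these enzymes serve amino acid synthesis or respiration.

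Some copper uptake genes were lower in SLAM too. Of 6 on the list, the copper transporters CTR3 (−2.99) and CTR1 (−2.83) and the copper reductase FRE7 passed as lower in wild type. In the deletion strain CTR1 (−2.83) and CTR3 (−2.19) passed as lower. CUP2, a transcription factor gene on the list and not an uptake gene, passed there as higher (0.77). FRE7 read below 5.60 on every array, so no size is given for it. CTR1 read 9.36 on the divergent array, beside 10.00 and 9.80 on the other deletion YPM arrays and 6.46 to 7.38 in deletion SLAM, nearer to YPM. CTR2 of the same list read 10.74 there, beside 11.97 and 11.91 in YPM and 9.55 to 11.58 in deletion SLAM, within its SLAM range. Of the 14 other GPI-anchored or cell wall mannoproteins, 1 passed in wild type (YGP1, 0.89 higher), and their medians, at 0.14 and 0.04, were near that of all genes. In the deletion strain TIR1 (−2.09), DAN1 (−1.57) and TIR3 (−1.29) passed as lower and YGP1 (0.85) as higher. DAN1 read between 5.39 and 5.99 in deletion SLAM, around the 5.60 that the deleted GPA2 could reach, so its size may be only a bound. Beside the counts of both lists, 7.34% of all genes passed as lower and 5.23% as higher in wild type. The shares in the deletion strain were 14.8% lower and 13.4% higher.

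Of the Arn family members that are not in the group, GEX2, which encodes a glutathione exchanger, was read by a probe set that can share targets with its near-identical copy GEX1. It averaged higher in SLAM by 1.01 in wild type and by 0.63 in the deletion strain and passed in neither (SE 0.47, adjusted p = 0.165 and 0.354).

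**Figure D4:**
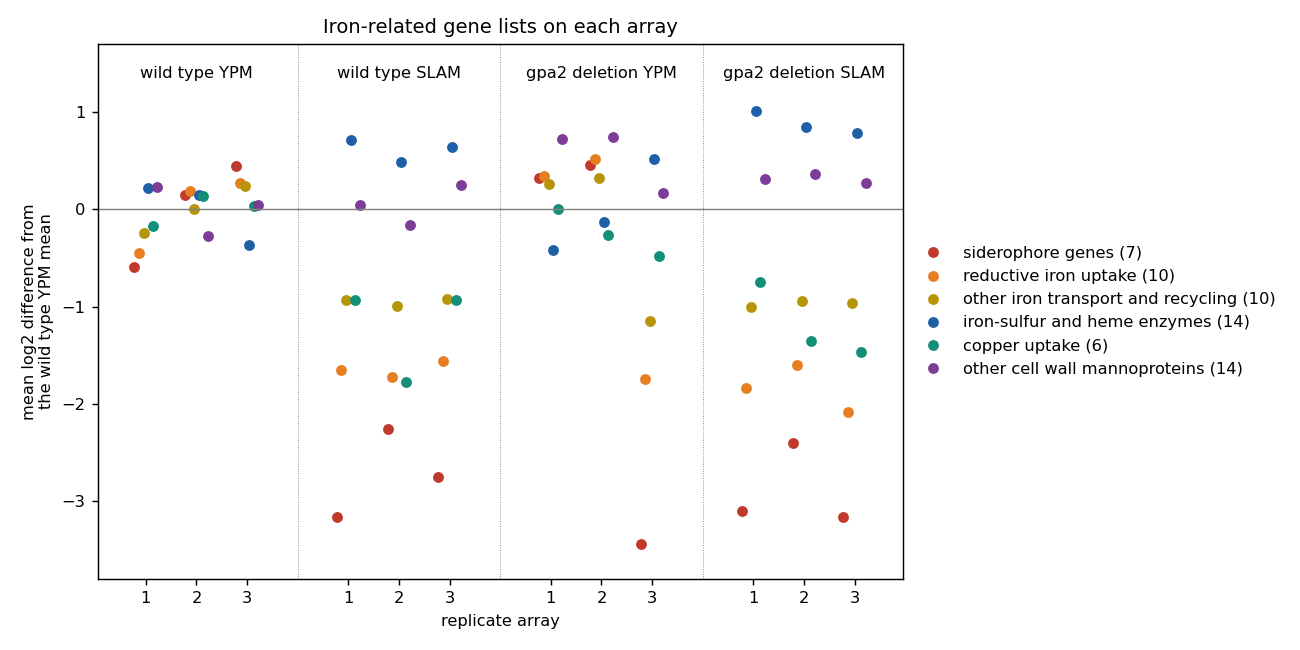
Mean log2 difference of 6 gene lists (colours, number of genes in brackets) from their wild-type YPM mean (vertical axis) on each of the 12 arrays (horizontal axis, replicates 1 to 3 of each group). The siderophore genes average between −0.59 and 0.45 on the YPM arrays other than gpa2 deletion replicate 3, −3.44 on that array and between −3.17 and −2.26 in SLAM, the widest range of the lists shown.

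Across the 12 arrays the siderophore genes varied together. Pearson's r between pairs ran from 0.85 to 0.98 over the 15 pairs without FIT3, and from 0.66 to 0.84 over the 6 pairs with it. These values rest largely on the contrast between media. As deviations from group means over the 11 arrays without the divergent one, r ran from −0.44 (ARN1 with ENB1) to 0.88 (FIT2 with FIT3), with a median of 0.42, and was below 0 for 6 of the 21 pairs. The genes most like their mean, by Pearson's r over the 12 arrays, were FRE5 (0.986), TIS11 (0.985), the vacuolar ABC transporter VMR1 (0.975), the copper chaperone ATX1 (0.963), the vacuolar iron permease FTH1 (0.960), the phosphate transporter PHO84 (0.951), YGL039W (0.951), FTR1 (0.935), INA1 (0.934) and the sterol synthesis gene ERG27 (0.932). These correlations are descriptive, since the 12 points share 2 media and the divergent array. When the divergent array was left out, 4 of the 10 genes were again among the first 10, FRE5, TIS11, VMR1 and INA1, and FRE5 kept the highest value, 0.986. When each of the 12 arrays, the divergent one included, was taken as its deviation from its group mean, 6 of the 10 were again among the first 10. On the divergent array the siderophore genes differed by −3.83 on average from the other arrays of its group, the largest such deviation. The last count is therefore not free of that array.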

How the data were processed

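The table holds log2 expression values of 9335 probe sets on 12 arrays as deposited by the authors. GCOS 1.2, MAS5 and RMA are listed in the submitters' processing notes with no role, so how these values were made is unknown, and detection calls were not used here. The values were used unchanged. Probe sets that were controls (60), carried several gene symbols (328) or none (2443) were left out. For 315 genes with several probe sets the brightest on average stood for the gene, leaving 5656 genes. Depth has no meaning for arrays, and 3 arrays a group limit the precision: the median standard error was 0.29 (log2).

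The model had 1 mean per group over the 12 arrays (limma 3.58.1 under R 4.3.3, lmFit and eBayes, 8 residual and 4.11 prior degrees of freedom). Two-sided p-values were Benjamini-Hochberg adjusted across the genes tested, separately for each comparison, with calls at an adjusted p under 0.05. They weigh each difference against the spread between cultures, pooled over the groups and moderated by limma. The code was tested on simulated data. Correlations, ranks and the exact test used Python 3.11.15 and SciPy 1.17.1.

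The siderophore genes and the gene lists were chosen with earlier results of these data known. All 7 siderophore genes were named in every comparison. From each list up to 4 of the largest passing members per comparison could be named, or the 2 with the smallest p where none passed. Not every such gene was named. FRE5, TIS11, AFT1, AFT2, CTR1 and CTR2 were also described after their values were seen. The 10 genes most like the siderophore genes and the 10 largest falls and rises on the divergent array were named. Alternatives were quantile normalization, median centring, a floor at the 10th percentile (log2 4.32), a filter on dim genes (3770 left), a test of all 9275 probe sets, a fit to only the 6 arrays compared, array weights and each array left out in turn. The comparison averaged over strains, leaving out both arrays that stood apart (the divergent array and wild-type SLAM replicate 2), and the counts over lists without the divergent array were added after the data were seen. The array files name no genome build, so no coordinates are given.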

Additional observations from a re-analysis of the deposited data

How the results depend on the processing

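No paired analysis was possible because the labels give no replicate numbers shared between groups. Over the alternatives, 712 of 826 differences of single siderophore genes kept their direction and side of the threshold, 35 lost the call, 32 gained it and 47 changed sign; the causes were not tested. The wild-type response, 711 genes and 3 siderophore genes, became 376 and 6 with only its 6 arrays, 2240 and 7 with array weights, 1525 and 7 without both arrays that stood apart, and 1 siderophore gene with a floor on low values. It ran from 62 to 1414 genes and from 0 to 6 siderophore genes as single arrays were left out. The deletion response, 1592 genes and 2 siderophore genes, became 2939 and 7 with weights. Its siderophore count was 0 with the floor and with its 6 arrays alone, 1 over all probe sets and 6 without both arrays. It ran from 945 to 1955 genes and from 0 to 6 siderophore genes over single arrays left out. The averaged response ran from 1810 to 2703 genes and from 6 to 7 siderophore genes.

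Between the strains in YPM, 1 gene became 2 over all probe sets or without both arrays and 67 with weights (1 to 2 over single arrays left out). In SLAM, 159 genes became 93 with the floor, 41 over all probe sets, 1 with the 6 arrays alone, 530 with weights and 72 without both arrays (4 to 385 over single arrays left out); median centring moved the split from 61 higher and 98 lower to 83 and 77. The difference of responses, 0 genes, became 2 with weights or without both arrays (0 to 2 over single arrays left out).

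Without both arrays, deletion against wild type in YPM turned to 0.45 for FIT1, 0.19 for FIT2, 0.32 for FIT3, 0.80 for ARN1, 0.44 for ARN2, 0.38 for SIT1 and 0.12 for ENB1, and with weights to 0.35 for ARN1. In SLAM it turned to −0.15 for FIT1, 0.13 for FIT2, 0.56 for FIT3 and 0.072 for ENB1, and with weights to −0.12, 0.039, 0.053 and 0.0070. The difference of responses turned to −0.60 for FIT1, −0.0598 for FIT2, −0.56 for ARN1, −0.15 for ARN2 and −0.044 for ENB1, and with weights to −0.17 for ARN1. Over single arrays left out, the YPM difference ran from −2.16 to 0.45 for FIT1, −2.26 to 0.19 for FIT2, −1.44 to 0.32 for FIT3, −1.04 to 0.80 for ARN1, −1.56 to 0.44 for ARN2, −0.95 to 0.38 for SIT1 and −1.63 to 0.12 for ENB1. The SLAM difference ran from −0.15 to 0.42 for FIT1, −1.03 to 0.13 for FIT2, −1.14 to 0.56 for FIT3 and −0.64 to 0.072 for ENB1. The difference of responses ran from −0.23 to 2.37 for FIT1, −0.80 to 1.65 for FIT2, −0.58 to 1.41 for FIT3, −0.42 to 1.42 for ARN1, −0.29 to 1.71 for ARN2, −1.05 to 0.28 for SIT1 and −0.45 to 1.30 for ENB1. None of these strain differences passed under any alternative.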

Other observations

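Zinc uptake genes gave a set of transport genes of another metal in the same cultures. Of 7, 0 passed by limma in either strain over 12 arrays, with an unadjusted p under 0.05 for 1 gene in each. Shares of all genes were 7.34% lower and 5.23% higher in wild type, and 14.8% lower and 13.4% higher in the deletion strain. Without the divergent array 0 passed in wild type and 2 in the deletion strain, the high-affinity zinc transporter ZRT1 (−1.10) and IZH2 (−1.45), both lower in SLAM. In that setting 8.54% and 14.5% of all genes passed as lower. ZPS1, a cell wall protein gene of zinc and pH responses, differed by 1.59 in wild type and 1.54 in the deletion strain and passed in neither (adjusted p = 0.165 and 0.149).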
